A study of Mus musculus with 6 samples.

Results

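The cytosolic ribosomal protein genes were followed in sorted mouse regulatory T cells (Treg cells), the CD4 T cells that express the transcription factor Foxp3 and restrain immune responses. Members were taken by name: symbols made of Rpl or Rps, a number and at most 1 letter, together with Rplp0, Rplp1, Rplp2 and Rpsa. The choice of symbols used no measured value, but for a symbol with several rows the row of highest summed count was kept. The rule found 81 of the 23992 gene symbols counted, 49 named for the large subunit and 32 for the small subunit. RefSeq annotates 80 of them as protein coding and Rps4l as a transcribed pseudogene. The 6 libraries form 2 groups of 3. The group labelled KO came from male CD45.2 mice of genotype Foxp3YFP-Cre/Y Crlf2fl/fl, in which a Cre recombinase fused to yellow fluorescent protein is made from the Foxp3 gene and deletes Crlf2, the TSLP-binding chain of the receptor for this epithelial cytokine, in cells that express Foxp3. The group labelled WT came from male CD45.2 mice of genotype Foxp3YFP-Cre/Y, so both groups carried the Cre allele, and no agent was given to either, as far as the labels say. Cells were sorted as live CD4+YFP+ from lymph nodes and spleen that had been pooled. The labels give no ages and do not say whether replicates came from separate mice. P-values therefore measure the spread among these libraries alone, which may be technical. The strain line in each sample's description names the strain opposite to its title and genotype tag, and the name of the deposited table mentions lung.

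A ribosome has a small subunit, which reads the messenger RNA, and a large subunit, which forms the peptide bond. Nearly every ribosomal protein is present in a single copy in each ribosome, and the proteins are needed in equal amounts. Their messenger RNAs are among the most abundant of a cell. Most begin with an uninterrupted run of C and T called a 5′ terminal oligopyrimidine (TOP) tract, through which the kinase complex mTORC1 controls translation of these messenger RNAs. That control acts on how well a message is translated, and counts of RNA do not measure it. T cells make many new ribosomes when they are activated, and mTORC1 and Myc both act on this programme.

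The sequences around the annotated start sites show what the members share beyond the name. Promoter sequence from RefSeq (GRCm38.p6, 250 bases before to 50 bases after each annotated start) was found for 60 members, in 72 windows. For each window the longest run of C and T on the transcribed strand within 50 bases of the start was sought, and the run is shown in capitals inside 30 bases read 5′ to 3′. Rps6, the substrate of S6 kinase, and Rps18 are shown as typical members, Rpl41 as the gene of highest level, and Rps27 and Rps27l as a pair of paralogs. Rpl11 belongs to the particle that joins the large subunit with its small ribosomal RNA. Rpl37a and Rpl34 lie at the upper end of the KO to WT fold changes, and Rpl31 and Rps26 at the lower end. Rps28 is shown as a member of high level with only a short run. Rps27l and Rpl34 each have a second annotated start, where the longest runs are 5 and 8, and the window with the longer run is shown.
Rps6, chr4:86857349-86857378, minus strand: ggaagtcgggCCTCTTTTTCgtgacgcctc
Rps18, chr17:33955648-33955677, minus strand: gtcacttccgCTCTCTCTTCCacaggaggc
Rpl41, chr10:128549119-128549148, minus strand: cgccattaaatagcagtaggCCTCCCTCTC
Rps27, chr3:90213632-90213661, minus strand: ttccgctttcgCTCCTTTCCggcggtgacg
Rps27l, chr9:66946053-66946082, plus strand: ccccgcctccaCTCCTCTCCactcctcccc
Rpl11, chr4:136053358-136053387, minus strand: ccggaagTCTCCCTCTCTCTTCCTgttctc
Rpl37a, chr1:72711274-72711303, plus strand: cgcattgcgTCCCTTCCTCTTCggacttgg
Rpl34, chr3:130730330-130730359, minus strand: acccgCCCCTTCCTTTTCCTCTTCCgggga
Rpl31, chr1:39367824-39367853, plus strand: ctcgccacaCCTCTTCCTCCTCgcctcccc
Rps26, chr10:128626485-128626514, minus strand: aagccgccggaTCCTCTTTCgagtcttggc
Rps28, chr17:33824567-33824596, minus strand: tctgtcccgaggaTTCCTgggtaccgcgtg
The run of Rps6 began 1 base before the annotated start, and those of Rps18 and Rps27 2 bases before it. Others lay farther off, such as that of Rpl41, which began at base 41 of the annotated transcript, or that of Rps27l, which began 22 bases before the start, so a run in these windows need not be the first bases of the message. Members at both ends of the fold changes carried a run. A run of at least 8 was present in 57 of the 72 windows of members (79.2%) and in 35.7% of the 32851 promoter windows of all genes. CGGAAGT, a word bound by ETS-family factors, occurred on either strand in 22 of the 72 windows (30.6%) against 6.42% of all, and AAGATGG, a word bound by YY1, in 11 (15.3%) against 6.34%. A match is a description of the letters in these windows, and windows of 1 gene can overlap.

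Ribosomal protein genes have left many processed pseudogenes in the mouse genome, so reads cannot always be placed. Transcripts of 80 members could be matched to GENCODE M21 (GRCm38), and each was cut into words of 50 bases. The median member shared 52.7% of its words exactly with a transcript of another annotated gene. The share was 50% or more for 45 members and lower for 35. Rpl3l and Rpl39l were among the 3 that shared none, whereas Rpl10 (92.1%), Rpl9 (93.3%), Rpl5 (93.8%) and Rpl35 (95.1%) shared nearly all. A pseudogene was among the partners of 77 members, and Rpl7a led with 121 pseudogenes. How reads that map to several places were counted is not stated, so the level of a member with much shared sequence is uncertain. A direct case is Rps27 and its retrotransposed copy Rps27rt, which is outside the rule. Rps27rt had 98.8 to 99.5% of the Rps27 count in each library (from 16439 against 16634 in KO replicate 3 to 10816 against 10873 in WT replicate 3). The other row of Rps27, which was not kept, had exactly the count of Rps27rt in each library. The same reads thus appear to be counted under both names, and they cannot be told apart.

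Library totals ranged from 1439738 counts in WT replicate 2 to 18352409 in KO replicate 3. CPM are counts scaled to library size, below with factors from a trimmed mean of log ratios (TMM). A count of 3 corresponded to 0.163 to 2.08 CPM by library totals, without these factors. Such limits cover counting error only. Crlf2 was 9.06, 6.72 and 3.55 CPM in the KO libraries and 92.8, 145.7 and 105.1 CPM in the WT libraries, so it was low in the libraries titled KO, opposite to what the strain line would give. Its log2 fold change of KO over WT was -4.16 (SE 0.36, adjusted p 0.00468 by edgeR's quasi-likelihood test). Foxp3 was 386, 489 and 426 CPM in KO and 474, 437 and 200.1 CPM in WT (log2 fold change 0.23, SE 0.30, adjusted p 0.763). Genes of other cell types were also counted. The 13 erythroid markers in the table, led by Hbb-bs, took 14.5% of the counts of WT replicate 3 and 0.175 to 0.690% elsewhere. The 18 lung epithelial markers, led by Scgb1a1, took 7.94, 1.78 and 2.31% of the WT libraries and 1.70, 2.08 and 0.265% of the KO libraries. They were thus counted in every library although the labels name lymph nodes and spleen, so the tissue of origin is uncertain. The 14 macrophage and monocyte markers, led by Chil3, took 0.0447, 0.0856 and 0.781% in WT and 0.282 to 0.302% in KO. B cell markers took 0.00199 to 0.0347%, neutrophil markers 0.00911 to 0.0609%, and endothelial and stromal markers 0.00794 to 0.0137%. Pan-T cell genes, led by Lck, took 0.767 to 0.870% of the KO libraries but 0.668, 0.742 and 0.427% of the WT libraries. Treg markers took 0.410 to 0.473% in KO and 0.384, 0.410 and 0.200% in WT. That list was led by Capg rather than Foxp3. By library totals Capg had 1540, 1250 and 1670 CPM in KO and 1090, 1160 and 716 CPM in WT. All these values move the denominator against which the members are read. In such bulk samples fewer cells of a type and less RNA per cell cannot be told apart.

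The members together took a similar share of all counts in every library. Their share was 6.004, 5.93 and 6.31% in the KO libraries (6.08% ± 0.204, SD, n = 3) and 5.67, 6.08 and 5.31% in the WT libraries (5.69% ± 0.381, SD, n = 3). The groups overlapped, and the lowest share belonged to WT replicate 3, the library with 14.5% erythroid counts. With erythroid and lung epithelial markers taken out of the totals, the share became 6.13, 6.07 and 6.34% in KO (6.18% ± 0.144, SD, n = 3) and 6.17, 6.23 and 6.39% in WT (6.26% ± 0.113, SD, n = 3). The WT libraries were then as close to one another as the KO libraries. On the TMM scale the members summed to 56410, 55000 and 60500 CPM in KO and to 60420, 59850 and 61220 CPM in WT, with KO replicate 3 inside the WT range and the other KO libraries below it. The KO mean was thus above the WT mean as a share of all counts, and below it on the other scales. The balance of the subunits differed little between libraries. Counts of large subunit members divided by those of small subunit members gave 1.61, 1.59 and 1.63 in KO and 1.62, 1.61 and 1.54 in WT.

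**Figure D1:**
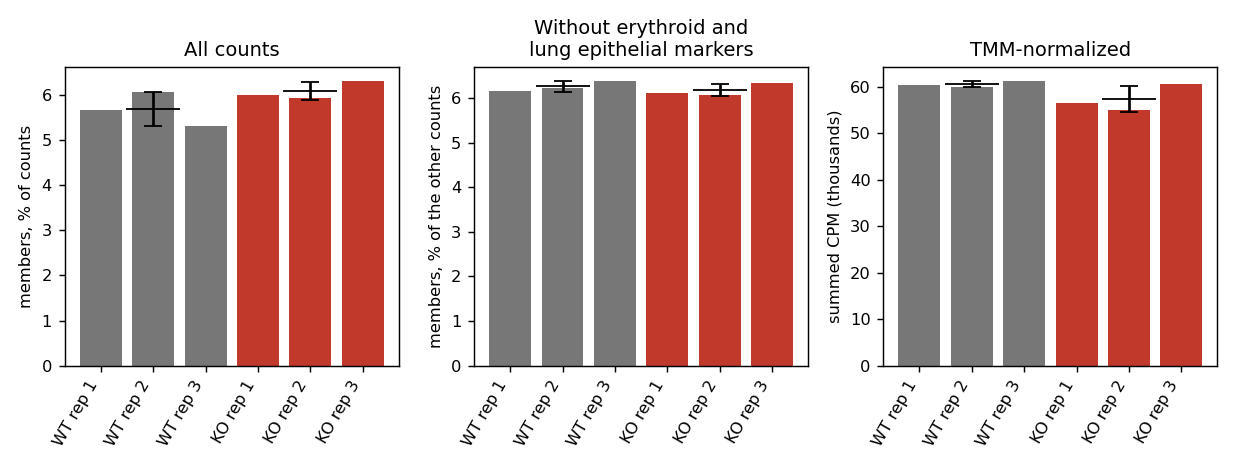
Summed level of the ribosomal protein genes in each library as a percentage of all counts (left), as a percentage of the counts left after erythroid and lung epithelial markers are removed (middle), and as summed TMM-normalized CPM (right). Bars are libraries (WT grey, KO red), and black marks give the group mean and SD (n = 3); the KO mean lies above the WT mean in the left panel (6.08 against 5.69%) and below it in the other panels, where the scaling differs.

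Levels of single members, compared per kilobase of the counted transcript, covered a wide range although the proteins are needed in equal numbers. The median was 993 CPM per kilobase over the 78 members that passed the filter on low counts, 962.8 for the large subunit and 1002 for the small subunit. Rpl41, which encodes the shortest ribosomal protein, was highest at 5313 CPM per kilobase, followed by Rps28 at 3084, Rps18 at 2810 and Rplp0 at 2761. Rps4l, the transcribed pseudogene related to the X-linked Rps4x, was lowest at 21.2 CPM per kilobase. Rpl22, which developing T cells need, followed at 70.6 and Rps15a at 114.5 CPM per kilobase. These last values depend on transcript length: the row of Rps15a is 5134 bases long and that of Rpl22 2353 bases, far longer than most members. Another row would change little, since Rps15a has only 1 and the 5 rows of Rpl22 are 2153 to 2357 bases long. Rplp0 alone made 6.38% of the members' summed CPM, and the 10 members of highest CPM made 31.4%.

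**Figure D2:**
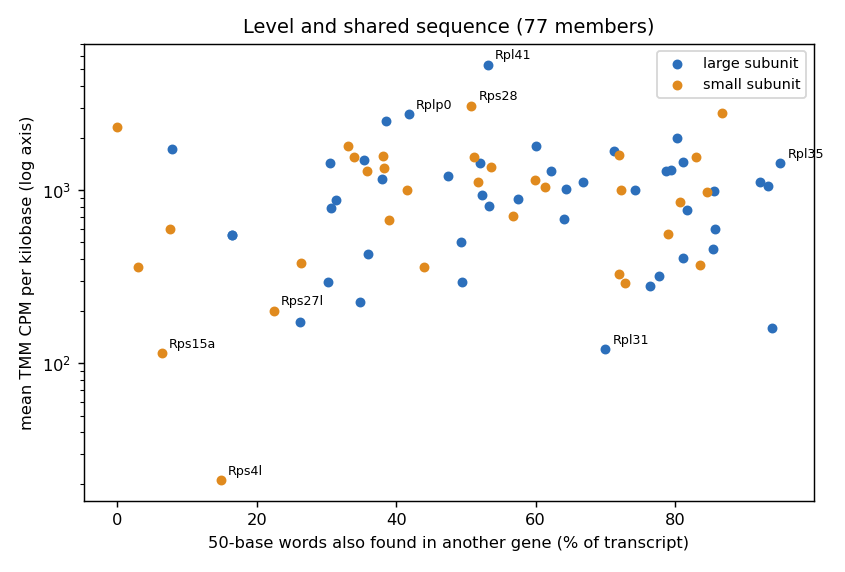
Mean level of each ribosomal protein gene over the 6 libraries (TMM CPM per kilobase of the counted transcript, log axis) against the percentage of its 50-base words found exactly in another annotated gene. Points are the 77 tested members with a matched transcript, blue for the large and orange for the small subunit; genes of high level occur at middling (Rplp0, 41.8%) as well as at high sharing (Rpl35, 95.1%).

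Level and shared sequence showed little relation across genes, which are not independent replicates and share libraries and, in part, reads. Over the 77 members with both values Spearman's rho was 0.073, and Pearson's r on log2 levels was 0.15. The median log2 fold change was -0.06 in the 32 tested members under 50% sharing and -0.10 in the 45 at or above it (TMM scaling).

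No ribosomal protein gene passed the test between KO and WT Treg cells. Of the 78 members tested, 0 had an adjusted p under 0.05 in edgeR's quasi-likelihood test over 12719 genes, where 1.74% of all genes were called, 0.755% as higher and 0.983% as lower in KO. Unadjusted p was under 0.05 for 7 members, all lower in KO, against 15.9% of all genes (9.13% lower and 6.73% higher). DESeq2 called 0 members as well, where it called 6.79% of all genes. It gave 8 members an unadjusted p under 0.05 (16.9% of all genes). With limma-voom 0 members were called, where 309 of the 12719 genes were. Its unadjusted p was under 0.05 for 9 members (19.9% of all genes). The differences were small: log2 fold changes ran from -0.48 to 0.23, with a median of -0.10 beside -0.04 for all genes tested. For the other genes of at least 100 CPM the median was 0.006. The sign of the members' median rests on the scaling, since it was 0.08 with library totals alone, beside 0.14 for all genes. By subunit the median was -0.10 for 46 large and -0.07 for 32 small subunit members, and with library totals alone it was 0.07 and 0.10.

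The intervals were narrow. The median standard error of the members' log2 fold changes was 0.11, against 0.29 for all genes tested and 0.15 for the 1965 other genes of at least 100 CPM. Level was not matched, since those genes had a median of 173.5 CPM and the members 661.8 CPM. The 95% interval lay within 2-fold in both directions for 77 of the 78 members, the exception being Rps4l. The same held for 48.9% of all genes and for 86.0% of the other genes of at least 100 CPM. It lay within 1.5-fold for 71 members (91.0%), against 19.4% of all genes and 55.8% of the other abundant ones. Narrow intervals were not particular to the members. In 11 related genes with symbols outside the rule, the median standard error was 0.12 and 90.9% of intervals lay within 1.5-fold. These intervals hold for TMM scaling and shift together with the factors.

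**Figure D3:**
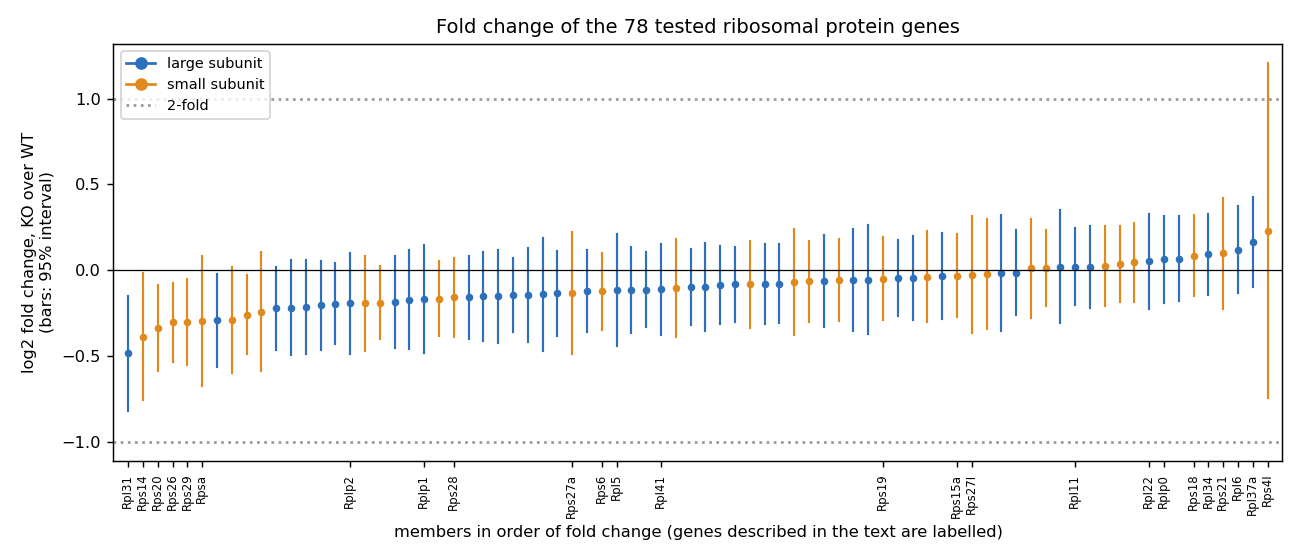
Log2 fold change of KO over WT for the 78 tested ribosomal protein genes in order of size (TMM scaling, edgeR), with 95% intervals as bars, blue for the large and orange for the small subunit; dotted lines mark a 2-fold difference. Values run from -0.48 (Rpl31) to 0.23 (Rps4l), and only the interval of Rps4l crosses a dotted line, and the genes described in the text are labelled; with library totals alone 58 members are positive instead of 17.

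Members varied little between libraries. The median SD of log2 level among replicates was 0.11 in KO and 0.10 in WT, beside 0.13 and 0.21 for the other genes of at least 100 CPM and 0.21 and 0.37 for all genes tested. In the 11 related genes outside the rule it was 0.09 and 0.08. The highest library exceeded the lowest by a median of 1.15-fold within KO and 1.14-fold within WT. WT replicate 3, the library high in erythroid and B cell markers, had a median deviation of 0.07 (log2) from the members' own means with TMM, beside 0.03 in each of the other WT libraries. Replicate differences within KO ran across many members at once: 20, 13 and 44 members exceeded their own mean over the 6 libraries in KO replicates 1 to 3, and 50, 49 and 59 did so in the WT libraries.

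**Figure D4:**
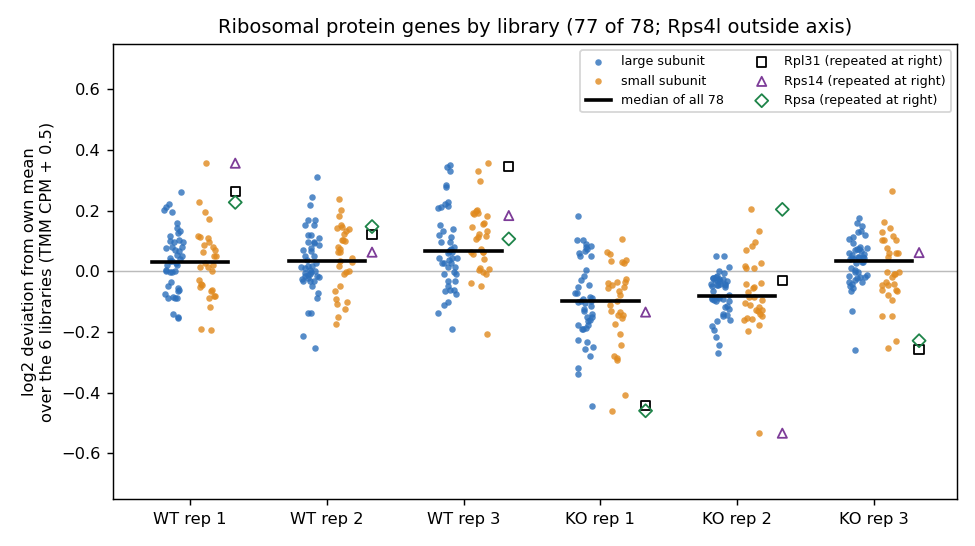
Log2 deviation of each tested ribosomal protein gene from its own mean over the 6 libraries (TMM CPM plus 0.5), by library, with black bars at the median of all 78 members and open symbols repeating Rpl31, Rps14 and Rpsa at the right of each library. Rps4l is outside the axis; the medians are -0.10, -0.08 and 0.04 in KO and 0.03, 0.03 and 0.07 in WT, and they shift with the scaling factors.

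How many members separated the groups depended on the scaling. With TMM, 20 members were lower in each KO library than in each WT library (11.5% of all genes were) and 0 were higher (10.4% of all genes). Of the 1965 other genes of at least 100 CPM, 298 were lower and 310 higher. Of the 20, 10 belong to each subunit. With library totals alone, 13 members were higher in all KO libraries (19.1% of all genes) and 2 lower (6.01%). With erythroid and lung epithelial markers left out of the totals, the counts were 2 higher (13.2%) and 11 lower (9.32%). With factors from pan-T cell genes, 0 were higher (3.31%) and 44 lower (21.3%). With each library scaled to the sum of the members, a choice made after the data were seen, 9 were higher (14.2%) and 9 lower (8.59%). The share of members lower in KO was 25.6% under TMM and 56.4% with pan-T cell factors, above that of all genes. It was closer to that of all genes, though above it, with markers left out (14.1%) and with the sum of the members (11.5%). The last of these scalings is set by the members themselves. With library totals alone the share was 2.56%, below that of all genes. Positive fold changes numbered 17 of 78 with TMM, 58 with library totals alone and 0 with pan-T cell factors, whose medians for all genes tested were -0.04, 0.14 and -0.35. The members' median lay 0.02 to 0.09 below the median of all genes on the log2 scale in all 20 fits made. Other factors move both medians nearly together: the difference was -0.05 with TMM, -0.06 with library totals alone and -0.05 with pan-T cell factors. The fits also reuse the same libraries, so their agreement is not separate support.

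**Figure D5:**
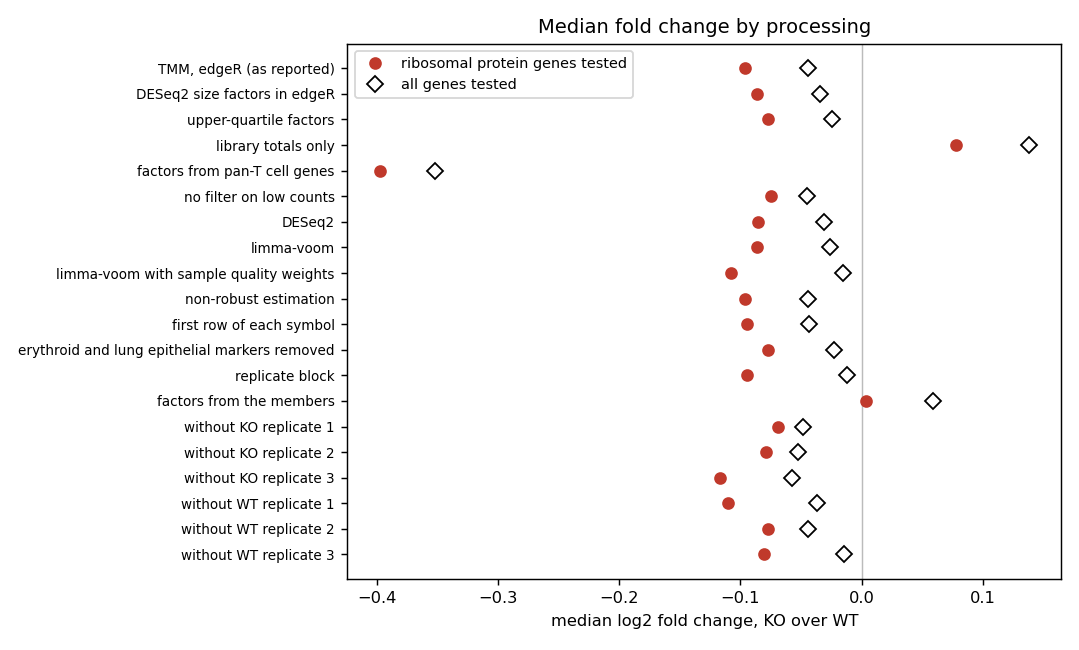
Median log2 fold change of KO over WT for the ribosomal protein genes (red circles) and for all genes tested (open diamonds) under each processing alternative. The members' median ranges from -0.40 (factors from pan-T cell genes) to 0.08 (library totals only) and lies left of that of all genes in each row. Other factors move both medians nearly together and the rows reuse the same libraries, so the rows are not separate support.

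Among large subunit members, the most negative difference was that of Rpl31 (chr1:39367851-39371911, transcript of 1253 bases), whose protein lies near the exit of the peptide tunnel. Its level was 109.5, 146.1 and 124.5 CPM in the KO libraries and 178.9, 162.2 and 189.6 CPM in the WT libraries. The groups did not overlap, with KO replicate 2 closest to the WT libraries. The log2 fold change was -0.48 (SE 0.15, unadjusted p 0.0098), and the adjusted p of 0.150 by edgeR's quasi-likelihood test missed the threshold. In the 20 fits it stayed negative with adjusted p from 0.0524 (DESeq2) to 0.467 (without KO replicate 1). The other rows of Rpl31 gave the same picture, with mean levels of 125.3 and 122.4 CPM in KO and 175.5 and 170.9 CPM in WT, and they repeat its reads. Exons of Rpl31 overlap those of Tbc1d8 on the opposite strand over 420 bases. Tbc1d8 had 68, 72 and 72 counts in KO and 153, 8 and 319 in WT (log2 fold change -1.85, SE 0.55, adjusted p 0.148). Whether counting used strand is not stated, so reads of the overlap cannot be told apart, and their part in the result was not tested. Such overlaps are common: 16 members share exon bases with another gene, 13 of them on the opposite strand.

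The upper end of the large subunit held Rpl37a, Rpl6 and Rpl34, all structural proteins of the subunit. Rpl37a was 1666, 1348 and 1660 CPM in KO and 1380, 1456 and 1335 CPM in WT (log2 fold change 0.16, SE 0.12, adjusted p 0.546). KO replicate 2 fell within the WT range, so the groups overlapped. Rpl6 was 1366, 1251 and 1370 CPM in KO and 1225, 1098 and 1346 CPM in WT (0.12, SE 0.11, adjusted p 0.656). Rpl34 was 779, 681 and 787 CPM in KO and 683, 714 and 709 CPM in WT (0.09, SE 0.10, adjusted p 0.715). These 3 differences were positive under TMM and negative with pan-T cell factors.

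The stalk of the large subunit, which recruits elongation factors, is built from Rplp0, Rplp1 and Rplp2, with several copies of the last 2 proteins on each Rplp0. Rplp0 was 3983, 3352 and 4179 CPM in KO and 3848, 3700 and 3468 CPM in WT (log2 fold change 0.06, SE 0.11, adjusted p 0.829). Rplp1 was 700.9, 802 and 880.9 CPM in KO and 836, 1040 and 803 CPM in WT (-0.17, SE 0.14, adjusted p 0.611). Rplp2 was 275, 343 and 362 CPM in KO and 365, 392.1 and 365 CPM in WT (-0.19, SE 0.13, adjusted p 0.525). Only for Rplp2 did the groups not overlap, with KO replicate 3 just under the lowest WT library. Without KO replicate 1 the fold changes of Rplp1 and Rplp2 were both -0.08, and without WT replicate 2 that of Rplp1 was -0.03. Per kilobase Rplp0 (2761 CPM) stood above Rplp1 (1803) and Rplp2 (794.6), the opposite of the order of protein copies.

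Rpl5 and Rpl11 join the small ribosomal RNA of the large subunit and, when ribosome assembly is disturbed, bind the p53 regulator Mdm2. Rpl5 was 300.4, 318 and 314 CPM in KO and 289, 315 and 405 CPM in WT (log2 fold change -0.11, SE 0.14, adjusted p 0.750). Its WT spread came from WT replicate 3, and without that library the sign turned (0.05). Rpl11 was 807, 727 and 797 CPM in KO and 739, 763 and 795 CPM in WT (0.02, SE 0.10, adjusted p 0.941), with all WT libraries inside the KO range. Rpl22 was 161, 162 and 184 CPM in KO and 156, 162 and 171 CPM in WT (0.05, SE 0.12, adjusted p 0.879). Rpl41 was 2293, 2079 and 2511 CPM in KO and 2547, 2671 and 2215 CPM in WT (-0.11, SE 0.12, adjusted p 0.697). None of these separated the groups.

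Small subunit members held the next 4 most negative differences, and in each of them the groups did not overlap. Like Rpl31, they were picked for these differences, so the lack of overlap is no separate support. Rps14, which lies at the platform of the subunit, was 845, 641 and 969 CPM in KO and 1188, 970 and 1054 CPM in WT. Its log2 fold change was -0.39 (SE 0.16, adjusted p 0.290), and the highest KO library was only just below the lowest WT library. Without KO replicate 2 the fold change was -0.23. Rps20, of the head of the subunit, was 243, 284 and 269 CPM in KO and 336, 343 and 327 CPM in WT (-0.33, SE 0.11, adjusted p 0.182). Rps26, at the exit of the messenger RNA channel, was 581, 541 and 505 CPM in KO and 649.6, 669 and 688 CPM in WT (-0.30, SE 0.10, adjusted p 0.189). Rps29, also of the head, was 425, 465 and 472 CPM in KO and 528, 532 and 618 CPM in WT (-0.30, SE 0.11, adjusted p 0.229). In Rps20, Rps26 and Rps29 the gap between the groups was larger than in Rps14, and all 4 genes kept a negative sign with library totals alone, where those 3 had -0.16, -0.13 and -0.12.

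Rps6, the small subunit protein phosphorylated by S6 kinase downstream of mTORC1, was 1333, 1214 and 1354 CPM in KO and 1358, 1418 and 1470.1 CPM in WT. The groups were separated by a few CPM, and the log2 fold change was -0.12 (SE 0.10, adjusted p 0.599), turning to 0.05 with library totals alone. Rpsa, which also acts as a laminin receptor at the cell surface, was 482, 764 and 566 CPM in KO and 777, 735 and 714 CPM in WT (-0.30, SE 0.17, adjusted p 0.438). Its KO replicate 2 lay within the WT range while the other KO libraries lay below it, and the fold change was -0.15 without KO replicate 1 and -0.49 without KO replicate 2. Rps19, whose loss causes an inherited anemia, was 834, 806 and 883 CPM in KO and 863, 802 and 945 CPM in WT (-0.05, SE 0.11, adjusted p 0.864). Rps27a, made as a fusion with ubiquitin, was 233, 282 and 260.2 CPM in KO and 235, 275 and 338 CPM in WT (-0.13, SE 0.16, adjusted p 0.736). In both of these the groups overlapped.

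The most abundant small subunit members per kilobase differed little. Rps28 was 963, 919.8 and 978 CPM in KO and 1017, 1027 and 1147 CPM in WT (log2 fold change -0.16, SE 0.10, adjusted p 0.496), and Rps18 was 1509, 1416 and 1624 CPM in KO and 1425, 1348 and 1514 CPM in WT (0.09, SE 0.10, adjusted p 0.743). The signs were opposite, and the 95% interval held 0 for both. Only in Rps28 did the groups not overlap. Rps21, a short protein of the subunit, was 135, 150.2 and 179 CPM in KO and 145, 139 and 149.7 CPM in WT (0.10, SE 0.14, adjusted p 0.789). Rps15a was 611, 549 and 584 CPM in KO and 541, 629 and 613 CPM in WT (-0.03, SE 0.11, adjusted p 0.920), with all KO libraries inside the WT range.

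Among the paralogs named by the rule, Rps27l and Rps4l had lower CPM than every other tested member (lowest Rps21, 149.6 CPM), and the rest had few counts. Per kilobase, however, Rps27l at 202 CPM stood above members such as Rpl31 at 121.1 CPM. Rps27l, a p53-induced relative of Rps27, was 100.5, 81.4 and 97.5 CPM in KO and 94.8, 84.2 and 104.1 CPM in WT (log2 fold change -0.03, SE 0.15, adjusted p 0.958). Rps4l was 21.8, 9.61 and 33.045 CPM in KO and 14.7, 19.8 and 20.7 CPM in WT (0.23, SE 0.43, adjusted p 0.839). Its 3 KO values enclosed all WT values, and its SE was the largest among the members tested, at only 29 counts in WT replicate 2. The other 3 members did not pass the filter on low counts. Rpl3l, known from heart and skeletal muscle, had 1, 9 and 3 counts in KO and 0, 0 and 16 in WT. Rpl10l, which replaces Rpl10 in male germ cells, had 1, 0 and 2 counts in KO and 0, 0 and 0 in WT, and Rpl39l, a germ cell relative of Rpl39, had 0, 0 and 4 in KO and 1, 0 and 0 in WT. At these counts no difference was detectable.

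The rule leaves out related genes with other symbols. Of 11 tested (7 other genes of ribosomal proteins or their relatives, the copy Rps27rt and 3 pseudogenes, of which the copy and the pseudogenes may repeat reads of members), 0 were called, 4 fold changes were positive and 7 negative, and the median was -0.07, turning to 0.10 with library totals alone. Rps3a1, a small subunit protein, was 500.1, 495.6 and 551 CPM in KO and 597, 599 and 626 CPM in WT (log2 fold change -0.24, SE 0.10, adjusted p 0.291). Rpl22l1, the paralog of Rpl22, was 43.3, 43.2 and 41.5 CPM in KO and 50.02, 58.8 and 65.2 CPM in WT (-0.44, SE 0.16, adjusted p 0.233). The groups did not overlap in either gene, and both were picked by smallest p, so this is no separate support. Fau, which encodes a ribosomal protein fused to a ubiquitin-like protein, had a log2 fold change of 0.07.

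Genes that make, use or control ribosomes were read from fixed lists, set against the same 1.74% of all genes called. Among 22 translation factors and related genes whose messages start with a TOP tract, 0 were called, and 7 fold changes were positive and 15 negative, with a median of -0.06 (0.12 with library totals alone, and 0.03 without WT replicate 2). The lowest p values belonged to Npm1, a nucleolar chaperone (KO 83.2, 90.9 and 92.7 CPM, WT 112.3, 147.8 and 116.4 CPM, log2 fold change -0.49, edgeR adjusted p 0.156), and to the elongation factor subunit Eef1g (KO 193, 236 and 232 CPM, WT 303, 255 and 297 CPM, -0.37, adjusted p 0.213). Among 50 ribosome biogenesis genes, 0 were called, with 11 positive and 39 negative fold changes and a median of -0.20. With library totals alone 25 were positive and 25 negative, and the median was -0.02. Rrp12, which exports precursor subunits, was 27.2, 11.4 and 27.9 CPM in KO and 39.3, 45.8 and 42.5 CPM in WT (-0.93, SE 0.33, adjusted p 0.218), and -0.62 without KO replicate 2, its lowest library. Mrto4, which assembles the stalk, was 15.8, 17.0 and 18.6 CPM in KO and 23.1, 32.2 and 25.1 CPM in WT (-0.63, SE 0.23, adjusted p 0.237). In both the groups did not overlap, and neither passed the test. Both were picked by smallest p, so the lack of overlap is no separate support.

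The proteins of the mitochondrial ribosome, which are encoded by a separate set of nuclear genes, also gave 0 calls among 76 tested. Of their fold changes 21 were positive and 55 negative, with a median of -0.12 that turned to 0.05 with library totals alone and was -0.04 without KO replicate 2. Mrpl17 was 36.7, 30.6 and 44.3 CPM in KO and 59.2, 63.6 and 65.6 CPM in WT (log2 fold change -0.75, SE 0.18, edgeR adjusted p 0.0902). Mrps5 was 67.3, 90.9 and 72.1 CPM in KO and 55.2, 38.3 and 35.5 CPM in WT (0.83, SE 0.22, edgeR adjusted p 0.109). The groups did not overlap in either gene, and DESeq2 called both, with adjusted p of 0.0176 and 0.0169. Since both were picked by smallest p, the lack of overlap is no separate support. DESeq2 called 6.79% of all genes, so 2 of 76 is no more than that background. Among 11 host genes of small nucleolar RNAs, which guide chemical modification of ribosomal RNA, 0 were called. Their median was -0.05, turned to 0.12 with library totals alone and to 0.05 without WT replicate 2, and was -0.17, -0.11 and -0.21 without KO replicate 1, KO replicate 2 and WT replicate 1. Snhg7 was 2.04, 3.04 and 3.34 CPM in KO and 6.69, 4.11 and 3.88 CPM in WT (-0.81, SE 0.52, adjusted p 0.505). Snhg8 was 60.8, 58.8 and 61.9 CPM in KO and 43.2, 52.7 and 57.0 CPM in WT (0.25, SE 0.16, adjusted p 0.512).

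Of 33 genes of mTORC1 and Myc control, 1 passed the test in edgeR, where 1.74% of all genes did, and DESeq2 called 1 higher and 3 lower, where it called 6.79% of all genes. Ddit4, which encodes REDD1, an inhibitor of mTORC1 induced by stress and glucocorticoids, rose from 68.6, 80.7 and 64.2 CPM in WT to 160.5, 110.9 and 133.1 CPM in KO. The lowest KO library stood above the highest WT library. The log2 fold change was 0.93 (SE 0.17, adjusted p 0.0450 by edgeR's quasi-likelihood test), close to the threshold. With pan-T cell factors it was 0.64 (adjusted p 0.181), and the call was also lost without robust estimation (adjusted p 0.0533) and on leaving out single libraries other than WT replicate 3 (adjusted p 0.0516 to 0.226). The call was lost as well with the replicate number as a block (adjusted p 0.11). The 3 genes that DESeq2 called lower were Myc, its partner Max, and Mxd1, an antagonist of Myc that also pairs with Max. They are named here after their values were seen. Myc, a driver of ribosome production, was 59.0, 64.8 and 49.3 CPM in KO and 128.4, 84.2 and 127.4 CPM in WT (log2 fold change -0.99, SE 0.20). Its adjusted p was 0.0515 in edgeR as reported, 0.000352 in DESeq2 and 0.0261 in limma-voom (0.0374 with quality weights). In edgeR it was 0.0426 without the filter on low counts and 0.0511 to 0.268 on leaving out single libraries. Mxd1 was 205.9, 282 and 182 CPM in KO and 500.4, 536 and 336 CPM in WT (-1.03, SE 0.22, edgeR adjusted p 0.062, DESeq2 0.000226). Its edgeR adjusted p was 0.0265 with pan-T cell factors, 0.0359 with the replicate block and 0.0092 without WT replicate 3. In the other edgeR fits it was 0.0519 to 0.287. Limma-voom gave an adjusted p of 0.0601, and 0.0183 with quality weights. Max was 98.8, 106.9 and 95.4 CPM in KO and 151.4, 145.7 and 135.4 CPM in WT (-0.52, SE 0.12, edgeR adjusted p 0.0862, DESeq2 0.0107). In all 3 genes the groups did not overlap, and none passed the test as reported. They were picked by the DESeq2 calls, so the lack of overlap is no separate support. The list as a whole had 17 positive and 16 negative fold changes, a median of 0.01 with TMM and 0.19 with library totals alone.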

How the data were processed

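RNA of 6 libraries (3 KO, 3 WT, by title and genotype tag) was sequenced on an Illumina NovaSeq, per the labels' protocols. The submitters' processing notes list bcl2fastq, Bowtie2 2.2.6, TopHat2 2.2.1 and mm10. The deposited table holds raw read counts for RefSeq transcripts and each transcript's length in bases, per the file headers and values. The counting program and its treatment of strand and multi-mapping reads are not stated. For each of 23992 symbols (31682 rows; 11 members have several) the row of highest summed count was kept. filterByExpr (minimum count 10, minimum total 15) left 12719 genes. The groups were tested with edgeR 4.0.16 (R 4.3.3; TMM factors, robust glmQLFit, glmQLFTest) and Benjamini-Hochberg adjustment over these genes, calling an adjusted p under 0.05. SEs were taken from the log2 fold change and the F statistic. The fit was tested on simulated data. Library totals ran from 1439738 to 18352409 counts, and no 2 libraries agreed within sampling noise (lowest chi-square per degree of freedom 12.73).

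Alternatives were other factors, no filter, DESeq2 1.42.0, limma 3.58.1 (voom, with and without quality weights), non-robust estimation, the first row of each symbol, marker genes left out, a replicate block and leaving out each library. Named genes followed a rule: Crlf2 and Foxp3, the 5 most positive and 5 most negative members, the 3 highest and 3 lowest per kilobase, the stalk, Rpl5 and Rpl11, paralogs, Rps6, Rpl22, Rpsa, Rps19, Rps27a, members not tested, and of each other list the called genes or the 2 of smallest p. Fau and the genes named for shared sequence or overlap were picked after their values were seen. Members and lists were chosen with earlier results of these data known.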

Additional observations from a re-analysis of the deposited data

How the results depend on the processing

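No setting called a member: 0 of 78 passed in all 20 fits (81 members were fitted without the filter on low counts). The 20 fits reuse the same 6 libraries, so they are not separate tests. Over the 12719 genes tested TMM gave 221 calls (96 higher in KO) and library totals alone 194 (137 higher). Pan-T cell factors gave 204 (26 higher) and the replicate block 123 (32 higher). DESeq2 called 863, limma-voom 309 and non-robust estimation 155. Leaving out KO replicates 1 to 3 gave 4, 124 and 7 calls among 13284, 13064 and 13143 genes. Leaving out WT replicates 1 to 3 gave 33, 22 and 518 among 13242, 13348 and 12932 genes. Where so few of all genes were called, as without KO replicate 1 or 3, a count of 0 members says little.

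The members' median log2 fold change was -0.096 as reported, 0.078 with library totals alone, -0.40 with pan-T cell factors and 0.0039 with factors from the members (an alternative chosen after seeing the data). Positive fold changes numbered 17, 58, 0 and 41. Leaving out each library gave medians from -0.117 to -0.069 and 10 to 25 positive members, the 10 without KO replicate 3. The member share of counts moved from 6.08 to 5.73% in KO on the TMM scale and from 5.69 to 6.26% in WT with erythroid and lung epithelial markers removed. Leaving out each library gave 5.97 to 6.16% in KO and 5.49 to 5.87% in WT.

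Of 722 recomputed log2 fold changes of 38 named genes, 679 kept sign and side of the threshold and 33 changed sign. With library totals alone these were Rpl41 (0.056), Rps28 (0.020), Rps15a (0.143), Rpl5 (0.071), Rps27l (0.161), Rps6 (0.053), Rps19 (0.131) and Rps27a (0.053). With pan-T cell factors they were Rps4l (-0.138), Rpl37a (-0.134), Rpl6 (-0.203), Rps21 (-0.217), Rpl34 (-0.213), Rps18 (-0.23), Rpl22 (-0.263), Rplp0 (-0.232), Rpl11 (-0.288) and Snhg8 (-0.082). Factors from the members turned Rps15a (0.073), Rps27l (0.078) and Rps19 (0.052), and voom with quality weights turned Rps27l (0.011). On leaving out each library in turn, Rps4l ranged from -0.220 to 0.589, Rps21 from -0.015 to 0.197 and Rpl22 from -0.0074 to 0.095, all lowest without KO replicate 3. Foxp3 ranged from -0.067 to 0.469, lowest without WT replicate 3. Rpl5 ranged from -0.209 to 0.047, Rps19 from -0.087 to 0.017 and Rps27a from -0.245 to 0.025, all highest without WT replicate 3. Rps15a ranged from -0.088 to 0.028 and Rps27l from -0.077 to 0.070. Without changing sign, these moved by over 1.5 times on leaving out 1 library, among differences over 0.15 as reported: Rplp1 (-0.026 to -0.077 without WT replicate 2 or KO replicate 1), Rplp2 (-0.077) and Rpsa (-0.150) without KO replicate 1, Rpl37a (0.265), Rps14 (-0.233), Rpsa (-0.495) and Rrp12 (-0.615) without KO replicate 2, Snhg7 (-0.486) and Snhg8 (0.141) without WT replicate 1 and Rps28 (-0.097) without WT replicate 3. The cause was not tested.

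Replicate numbers are not stated to pair samples, and same-numbered libraries did not deviate together (r across genes 0.084, -0.147 and -0.045). With the replicate block the members' median was -0.094, with 17 positive and 0 called, and Ddit4 had an adjusted p of 0.11. Depth limits Rpl3l, Rpl10l and Rpl39l, whose counts allow no comparison, and WT replicate 2, the shallowest library, where 3 counts equal 2.08 CPM by library totals.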
